A study of Mus musculus with 18 samples.

Results

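The immunity-related GTPases (IRGs) are a family of interferon-inducible GTP-binding proteins that rodents use against parasites and bacteria living inside vacuoles. They were examined here as the 8 genes Irgm1, Irgm2, Igtp, Ifi47, Iigp1, Gm4951, Tgtp2 and Tgtp1, taken by gene name from a table of read counts for 21734 protein-coding genes. Bone marrow-derived macrophages (BMDMs) came from mice of mixed 129/B6 strain aged 6 to 7 months, 3 mice of each genotype, and were grown for 8 to 9 days in 10 ng/mL of the macrophage growth factor M-CSF. Wild-type (WT) mice carried both normal miR-146a alleles. KO mice lacked the miR-146a precursor. The 3F mice (the 3′F allele, homozygous) made a miR-146a with the normal seed but a changed 3′ end. Cultures of each genotype received fresh medium alone (resting) or fresh medium with 1 ng/ml of the bacterial endotoxin LPS, and RNA was taken at 16 h. This gave 6 groups of 3 libraries. Both alleles were made in V6.5 embryonic stem cells and were kept as separate lines after crossing to C57BL6/J, so a KO or 3F difference covers the allele together with whatever else its line carried. All 8 genes passed the filter on low counts that left 11357 genes. The protein-coding table holds no row for the miRNA, so the targeted locus itself was not analysed here.

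LPS acts on macrophages through TLR4, whose signalling both activates NF-kB and causes interferon-β to be made. Interferon then acts through transcription factors, those of the IRF family among them, on IRG promoters. miR-146a is induced by the same receptors and is known to damp the signal by targeting Irak1 and Traf6. Among the IRG proteins, the regulatory or GMS class (Irgm1, Irgm2 and Igtp, also called Irgm3) sits on the membranes of the host cell and keeps the effector or GKS class inactive there, while the GKS effectors (Iigp1, or Irga6; Ifi47, or Irgd; and the Tgtp pair, or Irgb6) load onto pathogen vacuoles and break them. The letters name 3 amino acids of the GTP-binding loop, with methionine in place of lysine in GMS proteins. Translation of the annotated coding sequences, 406 to 423 codons long, put GMS in Irgm1, Irgm2 and Igtp and GKS in the other 5 genes.

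The miRNA sequences are shown because they define the WT and 3F genotypes. Capitals mark the seed, bases 2 to 8.
WT miR-146a-5p (RefSeq, GRCm38.p6, chr11:43374435-43374456, minus strand): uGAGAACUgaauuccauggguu
3F miR-146a, as the study's 20-base mimic: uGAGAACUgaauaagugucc
The first 20 bases of the RefSeq sequence are those of the study's WT mimic, and the 3F mimic differs from them at 8 bases, from position 13 to position 20. Sequence matches to the seed were counted in the longest annotated 3′ UTR and the coding sequence of each IRG gene. No IRG gene had a 7mer or 8mer match in either, while 18.2% of 20788 genes had at least 1 in the 3′ UTR. Irak1 had 2 8mer matches and Traf6 had 4. Matches of 6 bases alone stood in the 3′ UTR of Irgm2 and Igtp, with 1 each, and in the coding sequence of Gm4951, with 2, and of Igtp and Iigp1, with 1 each.

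Of the 8 genes, 6 lie on chromosome 11, which also holds Mir146, the miR-146a gene (GRCm38, chr11:43374397-43374461, minus strand). Irgm1 (chr11:48861968-48871683, minus strand) lies 5.49 Mb from it, followed by Tgtp1 (chr11:48985327-48994172, minus) at 5.61 Mb, Tgtp2 (chr11:49057194-49064206, minus) at 5.68 Mb and Ifi47 (chr11:49076587-49096974, plus) at 5.7 Mb. Igtp (chr11:58199556-58207591, plus) and Irgm2 (chr11:58199618-58222782, plus) overlap each other 14.83 Mb away. Coding sequences of Tgtp1 and Tgtp2 were identical at 1244 of 1248 bases, 99.7%, and those of Iigp1 and Gm4951 at 88.0% of aligned bases, followed by Irgm2 and Igtp at 73.2%. All other pairs were between 57.8% and 68.6%.

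Promoter sequence was read for the 6 chromosome 11 genes, each as 250 bases before to 50 bases after the RefSeq start. A core of the interferon-stimulated response element (ISRE, GAAANNGAA on either strand) was present in 5 of the 6, against 8.56% of 32851 promoter windows. A gamma-activated site (GAS, TTCNNNGAA, a palindrome in its fixed letters) was present in 4 of the 6, against 8.3%. An NF-kB motif (GGGANTTCC, either strand) was found in none of the 6, against 1.68%. The 30-base stretches around the ISRE matches are shown in the direction of transcription, with ISRE and GAS letters in capitals (GRCm38.p6).
Irgm1, chr11:48871432-48871461, minus: gcctgtttcaaGAAATAGAAACCGAAactg
Irgm2, chr11:58214902-58214931, plus: TTCCAGGAActGAAACTGAAagctgttcgg
Igtp, chr11:58199511-58199540, plus: TTCTAGGAActGAAACTGAAagctgttcgg
Tgtp2, chr11:49064264-49064293, minus: TTCCAGGAAtcGAAACCGAAacctactctg
Tgtp1, chr11:48992305-48992334, minus: TTCCAGGAAtcGAAACTGAAacctacctga
In Irgm2, Igtp, Tgtp2 and Tgtp1 the GAS match came first and the ISRE match began 2 bases after its end, at 64, 34, 70 and 77 bases before the start. Irgm1 had 2 overlapping ISRE matches and no GAS match, and Ifi47 had no match to any of the 3 motifs in its window.

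Levels are given as CPM, a gene's count divided by the TMM-scaled total of its library and put on a common scale. Library totals ran from 4071084 counts (resting 3F replicate 3) to 19818043, so that 3 counts correspond to 0.164 to 0.702 CPM, and this counting limit matters for the 4 least abundant IRG genes. Replicates 1 and 2 of resting KO differed by 7.06 chi-square units per degree of freedom over all genes, and resting KO replicate 3 differed from them by 111 and 101, the largest values among the 18 replicate pairs. Resting 3F replicate 3, the shallowest library, differed from its replicates by 64.6 and 59.0. Results that rest on resting KO replicate 3 are given with and without it. Markers of macrophages, led by Lyz2, summed to 31300 to 86600 CPM in every library. At rest they held 31300 to 47200 CPM in WT, 42000 to 61600 in 3F and 59600 to 61700 in KO. With LPS they held 44200 to 58400 CPM in WT, 48700 to 59100 in 3F and 69500 to 86600 in KO. The KO libraries were thus above the WT libraries in both states, and the part of this in the IRG levels was not tested. Markers of T cells reached at most 3.37 CPM, of NK cells 0.936, of B cells 1.17, of dendritic cells 4.45 and of fibroblasts 3.51, and those of neutrophils 12.4 to 63.0 CPM.

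The regulatory genes come first. Irgm1, which sits on Golgi and other host membranes, stood at 21.9, 31.4 and 42.9 CPM in the resting WT libraries and at 34.8, 33.0 and 23.4 CPM in resting 3F. Its resting KO libraries held 73.2, 59.3 and 535 CPM. The WT and 3F libraries overlapped, the first and second KO libraries lay just above them, and the third was 8.07 times their mean. With LPS, Irgm1 reached 325, 188 and 497 CPM in WT, 327, 374 and 264 CPM in 3F, and 446, 529 and 447 CPM in KO. Resting KO replicate 3 was thus above every LPS-treated library of Irgm1, KO included.

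Irgm2 was at 13.6, 15.4 and 21.1 CPM in resting WT, 17, 16.2 and 12.9 CPM in resting 3F, and 32.0, 23.6 and 205 CPM in resting KO. Its LPS libraries held 136, 64.7 and 204 CPM in WT, 127, 153 and 117 CPM in 3F, and 200, 284 and 208 CPM in KO. Igtp, whose exons share 162 bases with those of Irgm2 on the same strand, moved alike. It stood at 8.47, 10.5 and 12.5 CPM in resting WT, 11.4, 8.29 and 10.1 CPM in resting 3F, and 26.9, 21.8 and 254 CPM in resting KO. LPS-treated libraries held 109, 53.8 and 184 CPM of Igtp in WT, 107, 123 and 91.2 CPM in 3F, and 208, 332 and 238 CPM in KO. For Igtp every KO library with LPS was above every WT and every 3F library with LPS.

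Per kilobase of exon, Ifi47 had the highest mean of the GKS genes in each of the 6 groups. Resting WT held 6.77, 8.43 and 12.6 CPM, resting 3F 10.5, 7.76 and 10.1 CPM, and resting KO 41.3, 27.4 and 496 CPM. With LPS the values were 283, 123 and 444 CPM in WT, 291, 338 and 212 CPM in 3F, and 413, 598 and 448 CPM in KO. Every resting KO library was above every resting WT and 3F library for Ifi47, and the third was above every WT and 3F library with LPS.

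Iigp1 and Gm4951 are neighbours on chromosome 18, on the plus strand at 60376027 to 60392634 and at 60212080 to 60247820. Iigp1 was close to the counting limit at rest. It was at 0.394, 0.226 and 1.84 CPM in resting WT (6, 3 and 19 counts), 0.452, 0.579 and 1.17 CPM in resting 3F, and 5.19, 3.75 and 79.3 CPM in resting KO. LPS brought it to 36.9, 13.2 and 151 CPM in WT, 33.9, 30.9 and 26.9 CPM in 3F, and 124, 96.6 and 76.0 CPM in KO. The 3 WT libraries with LPS spread 11.4-fold and enclosed all 3F and KO libraries with LPS.

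Gm4951 rested on 2, 0 and 4 counts in resting WT and 9, 3 and 2 counts in resting 3F, and on 26, 16 and 112 counts in resting KO (1.61, 1.22 and 12.6 CPM). With LPS it reached 13.3, 7.17 and 54.6 CPM in WT, 22.1, 13 and 8.59 CPM in 3F, and 31.1, 35.3 and 16.8 CPM in KO. Tgtp2 rested on 2, 1 and 6 counts in WT and 6, 5 and 0 counts in 3F, against 22, 16 and 311 counts in KO (1.36, 1.22 and 34.9 CPM). Its LPS libraries held 13.2, 4.64 and 48.6 CPM in WT, 17.7, 19.2 and 20 CPM in 3F, and 42.2, 40.4 and 35.5 CPM in KO. For Tgtp2 and for Gm4951 the resting WT and 3F libraries overlapped and every resting KO library was above them.

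Tgtp1, the near copy of Tgtp2, never exceeded 19 counts in a library and had 3 counts or fewer in every resting WT and resting 3F library. It had 1, 0 and 8 counts in resting KO, and with LPS 6, 0 and 19 counts in WT, 7, 6 and 9 in 3F, and 19, 18 and 5 in KO. Of all 50-base stretches of its transcripts, 81.2% also occur in another gene, 79.4% in Tgtp2, and 86.6% of those of Tgtp2 occur elsewhere. The counts kept only reads with a mapping quality of at least 50, so reads from such stretches could be lost for both genes, and the split between Tgtp1 and Tgtp2 is uncertain. The other 6 genes shared 0.31% (Irgm1) to 11.8% (Igtp) of their stretches with another gene.

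**Figure D1:**
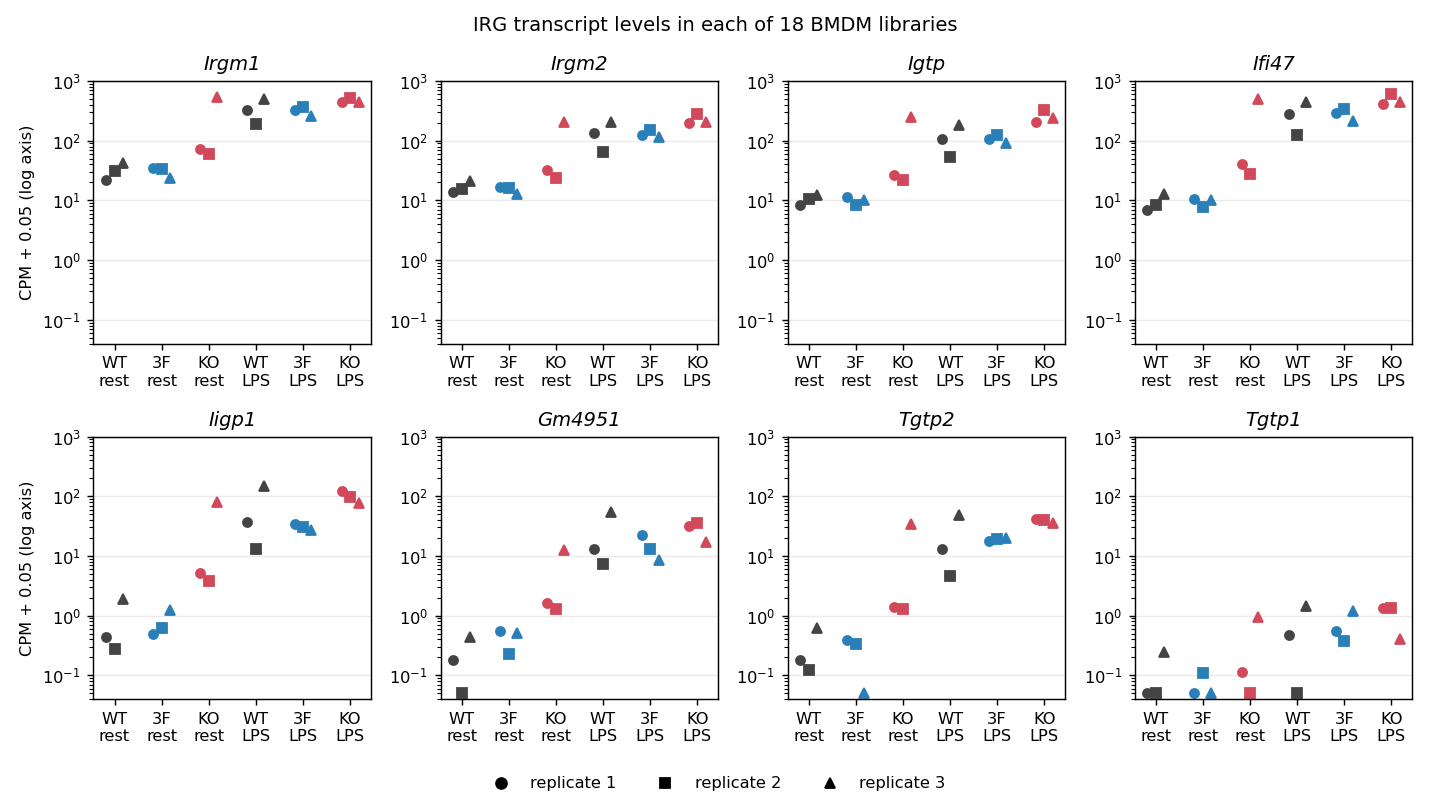
Level of each IRG gene (CPM + 0.05, log axis) in each of the 18 libraries, by genotype and state, with circles, squares and triangles for replicates 1, 2 and 3. Resting KO replicate 3 lies at the height of the LPS-treated libraries in every panel, while resting KO replicates 1 and 2 lie just above resting WT and 3F in the 7 panels other than Tgtp1.

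Per kilobase of exon, the scale on which genes can be compared, Irgm1 led in resting WT with a mean of 13.9 ± 4.56 CPM per kb (SD, n = 3). Igtp followed at 5.82 ± 1.11, Irgm2 at 4.73 ± 1.11 and Ifi47 at 4.56 ± 1.47 CPM per kb. These 3 neighbours did not differ beyond their spread. The other 4 genes lay between 0.0219 and 0.262 CPM per kb. In WT with LPS, Irgm1 (141, 81.6 and 216 CPM per kb by library) and Ifi47 (140 ± 79.1) were level, followed by Igtp (64.4 ± 36.5), Irgm2 (38.2 ± 19.7), Iigp1 (21.5 ± 23.6), Gm4951 (9.46 ± 9.76) and Tgtp2 (7.88 ± 8.29). Tgtp1 remained at 0.205 ± 0.242. Ifi47 thus moved from the fourth place to join Irgm1, and the spread of the WT libraries was about as wide as the mean for Iigp1, Gm4951 and Tgtp2.

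**Figure D2:**
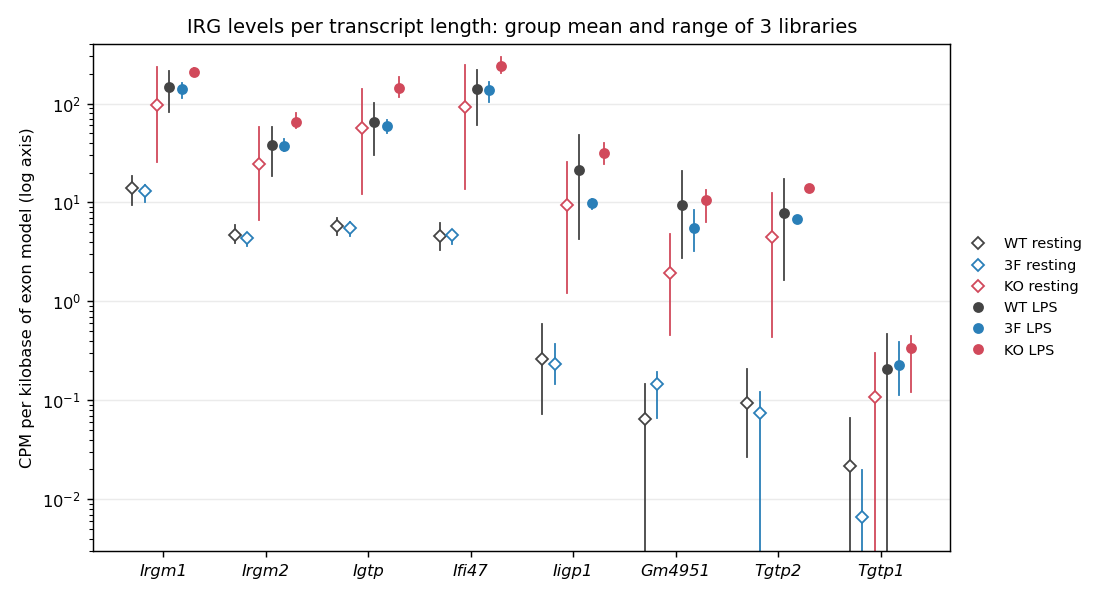
Mean level per kilobase of exon (CPM per kb, log axis) of each IRG gene in the 6 groups, open diamonds for resting and filled circles for LPS, with lines over the range of 3 libraries. KO with LPS has the highest mean of the 6 groups for 8 of 8 genes, and the resting KO ranges reach up into the LPS levels.

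The order of the 6 group means was nearly the same for each gene. KO with LPS was highest for 8 of 8 genes, and resting KO lay above both other resting groups and below all 3 LPS groups for 8 of 8. The resting KO means include replicate 3, the highest resting KO library for 8 of 8 genes. For Irgm1 the resting KO mean was 222 CPM with it and 66.2 CPM over replicates 1 and 2. For Tgtp1 the mean of replicates 1 and 2 was 0.0309 CPM, below resting WT at 0.0645 CPM, so the order did not hold for 8 of 8 without replicate 3. WT with LPS was above 3F with LPS for 7 of 8 genes (not Tgtp1), and resting WT above resting 3F for 6 of 8 (not Ifi47 or Gm4951), but the libraries of WT and 3F overlapped for each of the 8 genes, both at rest and with LPS. Among the WT libraries with LPS, replicate 2 was lowest and replicate 3 highest for 8 of 8 genes. Over the 18 libraries, Pearson's r between log2 CPM of 2 IRG genes ran from 0.835 to 0.995 over 28 pairs, with a median of 0.977, and from 0.828 to 0.995 without resting KO replicate 3. These are descriptions, since the libraries share their LPS treatment, and pairs with Tgtp1 are limited by its counts.

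The first question was how far LPS raised the IRG genes in each genotype. In WT macrophages 7 of the 8 genes rose and none fell, by 8.1-fold for Irgm2 to 152-fold for Gm4951, in edgeR's quasi-likelihood test with Benjamini-Hochberg adjustment over 11357 genes, where 16.3% of all genes were called higher. The log2 fold change was 3.40 ± 0.65 for Irgm1 (SE, adjusted p = 0.00105), 3.02 ± 0.63 for Irgm2 (0.00193) and 3.47 ± 0.73 for Igtp (0.00221). Of the GKS genes, Ifi47 rose by 4.95 ± 0.88 on the log2 scale (adjusted p = 0.000573), Iigp1 by 6.48 ± 1.27 (0.00132), Gm4951 by 7.24 ± 1.22 (0.000385) and Tgtp2 by 6.5 ± 1.43 (0.00294). Whether the GKS and GMS genes differed in response was not tested. Tgtp1 did not pass (3.29 ± 1.5, adjusted p = 0.116) and, against the floor of 3 counts per library, was at least 2.54-fold higher with LPS. The size of the response moved with single libraries, since Gm4951 rose by 5.96 on the log2 scale without WT LPS replicate 3, and the median of the 8 genes was 5.63 without resting WT replicate 3, against 4.21 with all libraries. Without overlap, every WT library with LPS was above every resting WT library for 7 of 8 genes, against 25.9% of all genes.

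In 3F macrophages the same 7 genes were called higher with LPS, against 17.2% of all genes. Log2 fold changes were 3.39 ± 0.65 for Irgm1, 3.08 ± 0.63 for Irgm2, 3.44 ± 0.74 for Igtp, 4.90 ± 0.88 for Ifi47, 5.66 ± 1.35 for Iigp1, 5.32 ± 1.12 for Gm4951 and 6.05 ± 1.43 for Tgtp2, with adjusted p between 0.00063 and 0.0048 (edgeR). Tgtp1 missed the threshold (95% interval 0.48 to 7.77, adjusted p = 0.079, edgeR), and its mean with LPS was 1.91 times the floor. All 8 genes were without overlap between LPS and resting 3F, against 25.1% of all genes. The difference between the 3F and the WT response was called for none of the 8 genes and for 0% of all genes, by edgeR, and none of the 8 had an unadjusted p under 0.05. DESeq2 and limma-voom also called none of the 8. The differences ran from -1.92 (Gm4951) to 0.84 (Tgtp1), and for Irgm1 the difference was -0.007 with a 95% interval from -1.80 to 1.78 on the log2 scale.

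In KO macrophages 1 of the 8 genes was called higher with LPS, Gm4951, by 2.56 ± 0.78 (log2, adjusted p = 0.0228, edgeR), against 14.3% of all genes. The log2 fold changes of the others were 1.10 for Irgm1, 1.42 for Irgm2, 1.37 for Igtp, 1.38 for Ifi47, 1.79 for Iigp1, 1.74 for Tgtp2 and 1.93 for Tgtp1, with adjusted p from 0.0818 to 0.21. Gm4951 and Tgtp2, 2 of the 8, were without overlap, against 23.8%. This test took the cultures as unpaired. With replicate number as a block, 7 of the 8 were called, against 14.7% of all genes, but the labels do not establish such pairs. Without resting KO replicate 3, 8 of the 8 were called higher, against 20.2% of all genes in that fit. Irgm1 then rose by 2.84 ± 0.35 (adjusted p = 1.26e-05, edgeR), Ifi47 by 3.82 ± 0.45 (7.27e-06), Iigp1 by 4.45 ± 0.79 (0.000384) and Tgtp2 by 4.92 ± 0.78 (0.000127).

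The difference between the KO and the WT response was negative for all 8 genes with every library in, from -4.77 ± 1.81 (Tgtp2) to -1.37 ± 1.96 (Tgtp1) on the log2 scale. None was called lower by edgeR, the lowest adjusted p being 0.557 for Ifi47 (-3.57 ± 1.09). An unadjusted p under 0.05 was found for 6 of the 8, against 560 of 11357 genes in either direction. Over all genes 0.00881% were called lower. DESeq2 and limma-voom called none of the 8 either, and with limma-voom 0 of the 8 had an unadjusted p under 0.05 and the median was -0.79. Leaving out resting KO replicate 3 brought the median difference of the 8 genes from -2.94 to -0.85, and the single unadjusted p under 0.05 that remained was that of Ifi47 (-1.13 ± 0.53). Irgm1 then differed by -0.56 ± 0.42, Igtp by -0.067 ± 0.48 and Irgm2 by 0.027 ± 0.46.

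**Figure D3:**
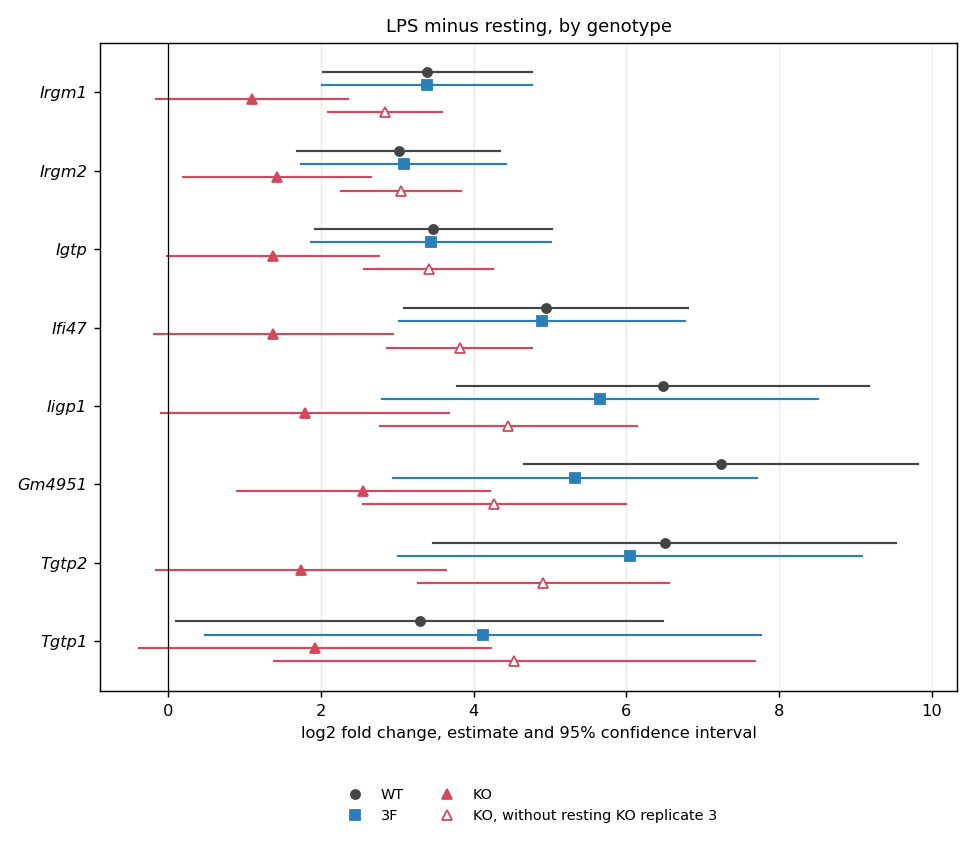
Log2 fold change with LPS of each IRG gene in WT, 3F and KO macrophages, with 95% confidence intervals, and for KO also without resting KO replicate 3 (open triangles). WT and 3F estimates coincide for Irgm1, Irgm2, Igtp and Ifi47, and the KO estimates, between 1.10 and 2.56 with all libraries, lie between 2.84 and 4.92 without that library.

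The second question was whether the loss of miR-146a changed the IRG genes without LPS. In resting macrophages 7 of the 8 genes were higher in KO than in WT by edgeR, against 5.12% of all genes called higher, and the same 7 were without overlap, against 13.7% of all genes. Irgm1 was 6.93-fold higher (log2 difference 2.79 ± 0.63, adjusted p = 0.012), Irgm2 5.18-fold (2.37 ± 0.61, 0.0234) and Igtp 9.61-fold (3.26 ± 0.73, 0.0108). Among the GKS genes, Ifi47 was 20.4-fold higher (4.35 ± 0.86, adjusted p = 0.00571), Iigp1 38.2-fold (5.26 ± 1.28, 0.0171), Gm4951 28.7-fold (4.84 ± 1.39, 0.0382) and Tgtp2 48.5-fold (5.60 ± 1.49, 0.0263). Tgtp1 was not called (2.09 ± 1.76, 95% interval -1.65 to 5.83, adjusted p = 0.532), and with 1, 0 and 8 counts in resting KO its difference was -0.51 without the third of these libraries. The calls differed between fits. A fit on resting KO and WT alone called 0 of the 7 genes that passed its filter (not Tgtp1) by edgeR. Adjusted p ran from 0.0957 to 0.167, and 1.14% of all genes were called higher. In that fit all 7 had an unadjusted p under 0.05, but the share of all genes at that level was not counted, so no reading is given to it. Limma-voom called 2, Irgm1 and Ifi47, against 9.55%. Iigp1 and Gm4951, on chromosome 18, changed in the same direction as the genes of chromosome 11. The part of other DNA carried by the KO line was not tested. In whole cultures, a change in the number of cells that express a gene and a change in its RNA per cell cannot be told apart. This holds for each difference given here.

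The size of the resting difference, and most of its calls, rested on resting KO replicate 3. That library stood at 12.3 times (Irgm2) to 133 times (Tgtp2) the resting WT mean for the 7 genes other than Tgtp1, while resting KO replicates 1 and 2 stood at 1.41 times (Irgm2, replicate 2) to 9.31 times (Gm4951, replicate 1). Without resting KO replicate 3, edgeR called 1 of the 8 genes, Ifi47, at 3.76-fold (log2 difference 1.91 ± 0.41, adjusted p = 0.0114), against 3.61% of all genes called higher in that fit. Irgm1 was then 2.08-fold higher (1.05 ± 0.32, adjusted p = 0.0568, edgeR) and Igtp 2.34-fold higher (1.23 ± 0.37, adjusted p = 0.0561, edgeR). Irgm2 stood at 0.75 ± 0.34, Iigp1 at 2.60 ± 1.04, Gm4951 at 3.13 ± 1.47 and Tgtp2 at 2.43 ± 1.32 on the log2 scale, none of them called. Resting KO replicates 1 and 2 were each above all 6 resting WT and 3F libraries for 7 of the 8 genes, against 15.8% of all genes. Calls were also lost by leaving out a resting WT library, since 1 gene (Ifi47) stayed called without replicate 1 or without replicate 2, and 4 genes (Irgm1, Igtp, Ifi47 and Iigp1) without replicate 3. In those fits 2.4%, 1.64% and 3.31% of all genes were called higher, and the median difference of the 8 genes was 3.64, 3.77 and 4.74, against 3.81 with all libraries.

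Placed between the mean of resting KO replicates 1 and 2 (0%) and the KO mean with LPS (100%) on a log2 scale, resting KO replicate 3 stood at 106% for Irgm1, 95% for Irgm2, 100% for Igtp, 101% for Ifi47, 93.3% for Iigp1, 72.7% for Gm4951 and 96.3% for Tgtp2. The median of the 8 genes was 97.8%. Over 646 other genes, those called higher with LPS by over 2-fold in 3F that also stood over 2-fold apart between those KO means, a set chosen after the IRG values were seen, the same library stood at a median of 57.1%, with quartiles of 17.5% and 92.5%. Summed over the 8 genes, resting KO replicate 3 held 1617 CPM, against 182 and 138 CPM in replicates 1 and 2, 51.4 to 92.1 CPM in resting WT and 1465 to 1916 CPM in KO with LPS. T cell markers summed to 3.37 CPM in resting KO replicate 3 and to 1.36 and 1.15 CPM in replicates 1 and 2, with Cd3e, Cd3d and Cd3g at 0 counts in all 3, and NK cell markers to 0 to 0.0618 CPM. Neutrophil markers summed to 50.7 CPM there, against 13.4 and 24.5 CPM in replicates 1 and 2, while resting 3F replicate 3 held 63.0 CPM of them with 58.1 CPM of IRG transcripts. The part of neutrophils in the IRG levels was not tested.

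Against 3F, whose miR-146a keeps the seed, 6 of the 8 genes were higher in resting KO by edgeR, against 6.79% of all genes. Log2 differences were 2.85 ± 0.64 for Irgm1, 2.46 ± 0.62 for Irgm2, 3.34 ± 0.74 for Igtp, 4.32 ± 0.87 for Ifi47, 5.56 ± 1.36 for Iigp1 and 5.37 ± 1.47 for Tgtp2, with adjusted p from 0.00753 to 0.0271. Gm4951 (3.68 ± 1.22, adjusted p = 0.0568, edgeR) and Tgtp1 (2.92 ± 1.98, adjusted p = 0.321, edgeR) were not called. Without overlap were 7 of the 8, against 15.8% of all genes. Without resting KO replicate 3, 3 genes were called, Irgm1 (1.10 ± 0.32), Igtp (1.30 ± 0.38) and Ifi47 (1.88 ± 0.42), against 4.4% of all genes. Leaving out a resting 3F library left 5 genes called without replicate 1 or 2, and 4 without replicate 3, against 7.18%, 5.26% and 3.68% of all genes, with medians of 3.87, 3.70 and 3.53 beside 3.51 with all libraries. The fit on these 2 groups alone called 0 of 7 genes by edgeR, against 0.101% of all genes called higher, and limma-voom called 3, against 12.9%. In the fit on 2 groups all 7 had an unadjusted p under 0.05, but again the share of all genes was not counted and no reading is given to it. This comparison and the one with WT share the resting KO libraries.

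With LPS none of the 8 genes was called between KO and WT by edgeR, with no unadjusted p under 0.05, against 1.89% of all genes called higher. The log2 differences ran from 0.15 ± 0.69 (Gm4951) to 1.16 ± 0.65 (Igtp), all above 0, with adjusted p from 0.385 to 0.949, and Igtp alone was without overlap, against 16.9% of all genes. DESeq2 called none, and limma-voom with library weights called Igtp (1.14, adjusted p = 0.0139) and Tgtp2 (1.42, adjusted p = 0.013), against 7.84% of all genes. The 95% interval for Irgm1 ran from -0.75 to 1.74 on the log2 scale. Between KO and 3F with LPS the result was alike by edgeR, with none of the 8 called, no unadjusted p under 0.05, and 1.51% of all genes called higher. Log2 differences ran from 0.56 (Irgm1) to 1.69 (Iigp1), with adjusted p from 0.355 to 0.786. Apart from Gm4951 and Tgtp1, 6 of the 8 genes were without overlap, against 19.4% of all genes. In a fit on those 2 groups alone, which takes the spread from their 6 libraries, 6 of the 8 were called higher in KO, from 0.53 for Irgm1 (adjusted p = 0.0171, edgeR) to 1.65 for Iigp1 (adjusted p = 0.000262, edgeR), against 7.61% of all genes, and limma-voom called 3, Igtp, Iigp1 and Tgtp2, against 8.25%.

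The third question was whether the changed 3′ end of miR-146a mattered for these genes. Between 3F and WT none of the 8 genes was called in resting macrophages, nor at an unadjusted p under 0.05, by edgeR, DESeq2 or limma-voom, where edgeR called 0% of all genes. The log2 differences were -0.058 ± 0.61 for Irgm1, -0.091 ± 0.62 for Irgm2, -0.073 ± 0.73 for Igtp and 0.030 ± 0.82 for Ifi47, with 95% intervals of -1.35 to 1.23, -1.39 to 1.21, -1.62 to 1.48 and -1.72 to 1.78. For Iigp1, Gm4951, Tgtp2 and Tgtp1 the resting counts were so low that the intervals spanned more than 8 units. With LPS none of the 8 was called either, or had an unadjusted p under 0.05, by the same 3 tools, and edgeR called 0.00881% of all genes. Differences then ran from -1.13 ± 0.88 (Iigp1, 95% interval -2.98 to 0.73) to 0.006 ± 1.17 (Tgtp1), and the 95% interval for Irgm1 ran from -1.31 to 1.18. A p that misses the threshold does not show equal levels, and differences within these intervals were not detectable with this spread.

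**Figure D4:**
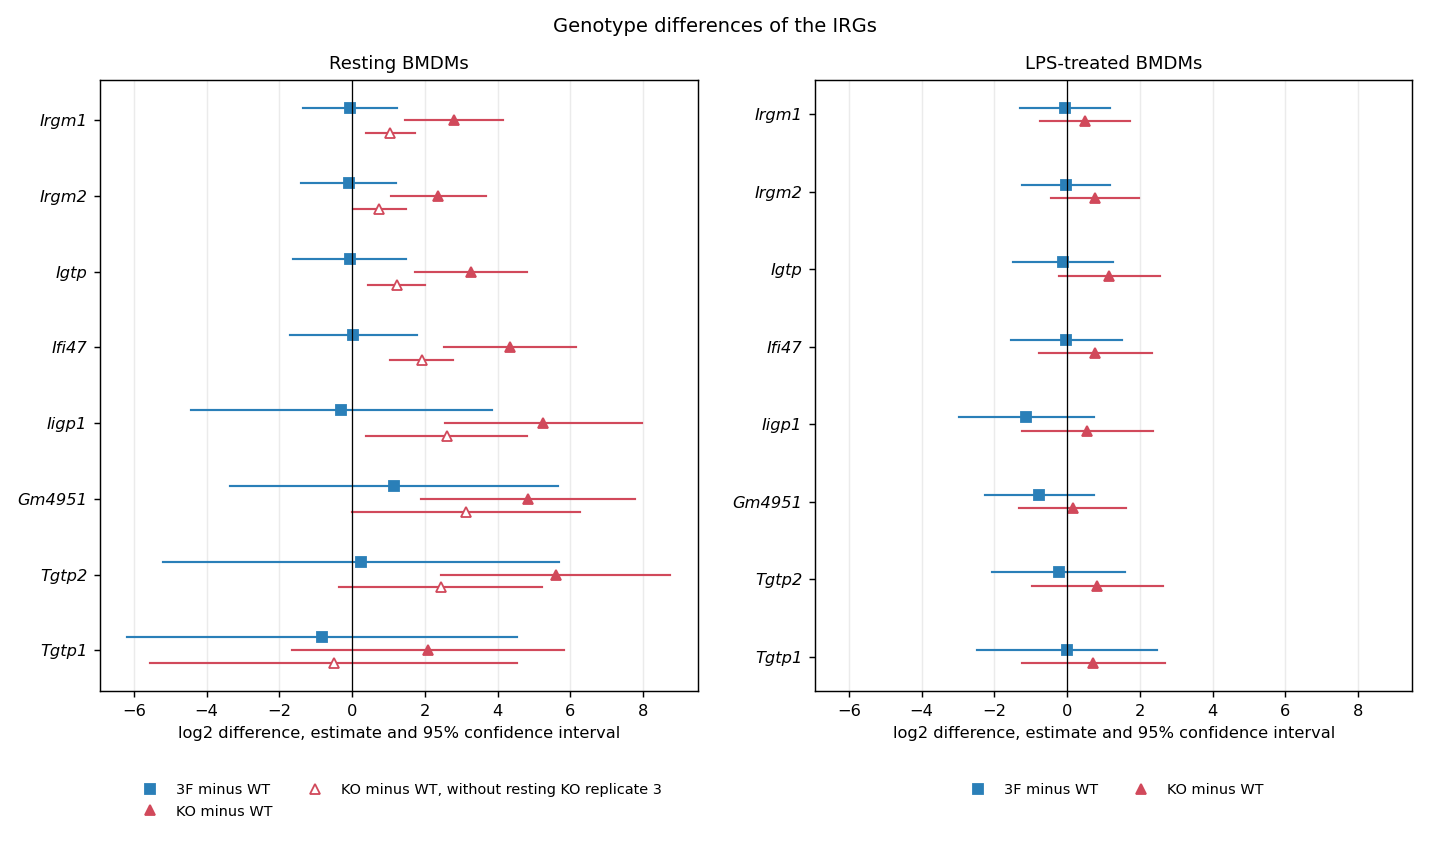
Log2 difference from WT of each IRG gene in 3F (squares) and KO (triangles), resting on the left and with LPS on the right, with 95% confidence intervals, and for resting KO also without replicate 3 (open triangles). In resting cells the KO estimates lie between 2.09 and 5.60 with all libraries and between -0.51 and 3.13 without that library, and the 3F estimates lie on both sides of 0.

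Other rows of the IRG family, taken as a list, moved in part like the 8 genes. Of 9 listed, 8 were among the 21734 genes counted and 6 were tested. With LPS 4 of the 6 were called higher in WT (against 16.3% of all genes) and 3 in 3F (17.2%). In KO 0 were called (14.3%), or 3 without resting KO replicate 3 (20.2%). Between KO and WT at rest 1 was called higher, against 5.12% of all genes. Gm5431, which lies beside Irgm1 at 5.51 Mb from Mir146, rose by 3.15 ± 0.61 with LPS in WT (log2, adjusted p = 0.00123, edgeR) and was 2.78 ± 0.61 higher in resting KO than WT (adjusted p = 0.0101, edgeR). Without resting KO replicate 3 it was the 1 member of this list still called, at 1.35 (adjusted p = 0.0423, edgeR), against 3.61% of all genes. Gm12185, 9930111J21Rik2 and F830016B08Rik rose with LPS in WT, by 2.01, 1.31 and 4.89, and with 9930111J21Rik1 and Irgq they were not called between resting KO and WT. Irgq stood at 20.9 ± 2.25 CPM in WT with LPS and 22.0 ± 0.55 CPM in resting WT. Gm4841 and Irgc1 did not pass the filter.

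On the pathway from interferon to the IRG promoters, 20 of 21 listed genes were tested. Among the ligands, Ifng had 1 count in 1 of the 18 libraries, a WT library with LPS, and 0 in all others. Ifnb1, encoding interferon-β, was at 0 counts in resting WT, at 5 to 11 counts in WT with LPS and at 13 to 30 counts in KO with LPS, and in resting KO it had at most 6 counts. It was called higher with LPS in WT (adjusted p = 0.0212, edgeR) and not between KO and WT at rest (adjusted p = 0.213, edgeR). Among receptor and kinase genes, Ifngr1 (0.17 ± 0.11), Ifngr2 (0.33 ± 0.12), Jak1 (0.18 ± 0.14) and Jak2 (0.50 ± 0.20) were not called between resting KO and WT. Ifnar1, a chain of the interferon-β receptor, stood at 387 ± 74 CPM in resting KO and 281 ± 12.7 CPM in resting WT (SD, n = 3), was not called with all libraries (0.46 ± 0.16, adjusted p = 0.0782, edgeR) and was called without resting KO replicate 3 (0.61, adjusted p = 0.0188, edgeR).

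Transcription factor genes downstream were called as well. Stat2 (2.31 ± 0.53 on the log2 scale, adjusted p = 0.0127), Irf1 (1.44 ± 0.26, 0.00368) and Irf9 (1.17 ± 0.20, 0.00288) were higher in resting KO than WT by edgeR. The feedback inhibitor Usp18 was 4.65 ± 0.90 higher (adjusted p = 0.00534, edgeR), while Socs1 (1.90 ± 0.70, adjusted p = 0.105) and Irf8 (0.38 ± 0.14, adjusted p = 0.0894) were not called. In all, 6 of the 20 were called higher and none lower in resting KO, against 5.12% of all genes called higher, with a median of 0.49 beside 0.017 over all genes tested. With LPS 16 of the 20 rose in WT, against 16.3% of all genes. In the fit without resting KO replicate 3, 6 of the 20 were called, against 3.61% of all genes, among them Irf1 (1.21, adjusted p = 0.0117), Irf9 (0.78, adjusted p = 0.00216) and Usp18 (2.15, adjusted p = 0.00826), while Stat2 (0.97, adjusted p = 0.0572) was not, all by edgeR.

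The guanylate-binding proteins (GBPs), the partner family of larger interferon-induced GTPases that act with IRGs on vacuoles, were likewise called in part. In resting KO against WT, 6 of 9 tested were called higher, against 5.12% of all genes, with a median of 4.25, and 3 of 9 (Gbp2, Gbp3 and Gbp5) without resting KO replicate 3, against 3.61% of all genes, with a median of 1.38. Gbp2 was 4.6 ± 0.96 higher (adjusted p = 0.00778, edgeR). Gbp2b, at 137 ± 216 CPM in resting KO and 0.29 ± 0.50 CPM in resting WT, differed by 9.12 ± 2.37 (adjusted p = 0.024, edgeR). It was the 1 gene of the list called between KO and WT with LPS (9.94 ± 2.26, adjusted p = 0.0199, edgeR), against 1.89% of all genes called higher. Its resting difference was 5.64 and not called without resting KO replicate 3 (adjusted p = 0.154, edgeR). A further list covered IRG loading and vacuole tagging, mainly the Atg and Gabarap autophagy conjugation machinery with ubiquitin and Traf6. It also held Irgq, already named among the other IRG rows. None of its 18 tested genes was called between resting KO and WT by edgeR, against 9.4% of all genes called in either direction, and their median was 0.075. Of 18 other interferon-γ targets of macrophages, 6 were called higher in resting KO, against 5.12% of all genes, with a median of 1.76. Without resting KO replicate 3, 6 were called, against 3.61% of all genes, with a median of 0.63. The largest called was Cxcl10, a chemokine, at 4.73 ± 0.98 (adjusted p = 0.0078, edgeR), followed by Acod1, the itaconate-making enzyme, at 3.51 ± 0.60 (adjusted p = 0.00271, edgeR). Both remained called without resting KO replicate 3, at 2.67 and 1.99. No gene of the 5 lists was called between 3F and WT, at rest or with LPS, by edgeR.

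**Figure D5:**
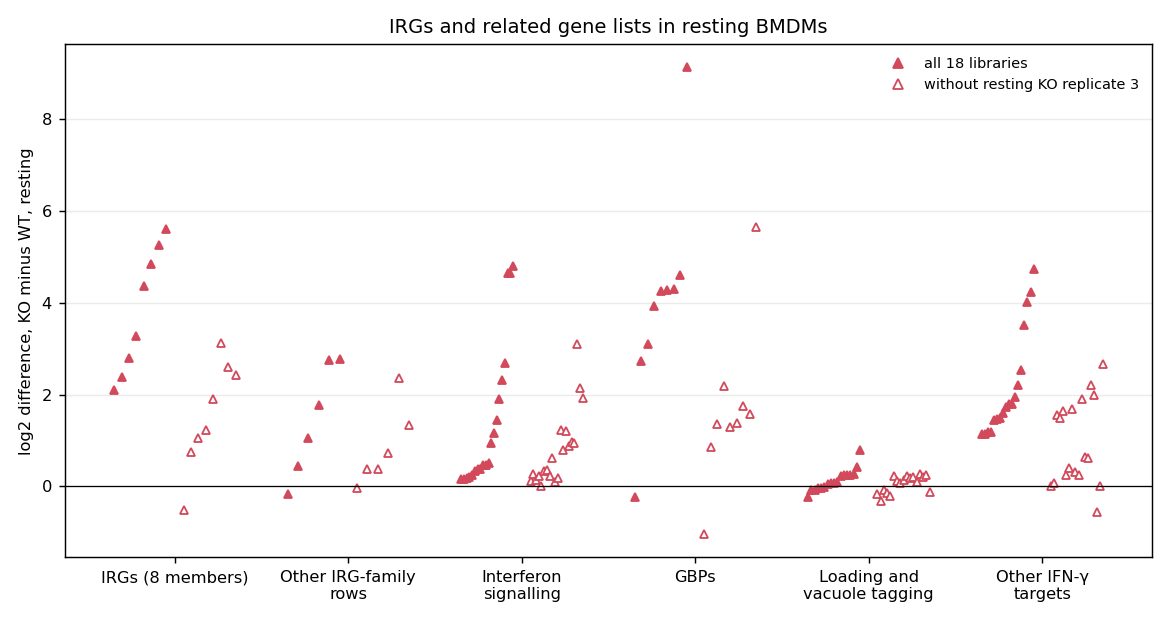
Log2 difference between resting KO and resting WT for the 8 IRG genes and the tested genes of 5 lists, each triangle a gene, filled for all 18 libraries and open without resting KO replicate 3. With all libraries the IRG and GBP lists have the highest medians, 3.81 and 4.25, and the loading and tagging list has a median of 0.075.

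The genes whose levels followed the mean of the 8 IRG genes most closely over the 18 libraries were Ifi204 and Rsad2, each with Pearson's r = 0.9958, then Gbp3 (0.9951), Dtx3l (0.9946) and Ddx60 (0.9943). Without resting KO replicate 3, Rsad2, Ifi204, Gbp3 and Dtx3l were again in front, at 0.9943 to 0.9956, with Gm5431 level with Dtx3l. By gene, for the 7 other than Irgm1, the most alike was Samhd1 for Irgm2 (0.9979), Daxx for Igtp (0.9952), Slfn5 for Ifi47 (0.9979), Mx1 for Iigp1 (0.9911), Slamf8 for Gm4951 (0.9902), Dtx3l for Tgtp2 (0.9931) and Cab39l for Tgtp1 (0.9101). These values are descriptions over libraries that share their treatment and depth.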

How the data were processed

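Per library and gene, the deposited file gives a raw read count. The authors trimmed adapters with cutadapt 1.8.3, removed ribosomal reads, aligned the rest to mm10 with HISAT2 2.1.0 and counted them, by strand, per gene of Gencode M15 with featureCounts 1.5.3 at a mapping quality of at least 50. Libraries were directional and depleted of ribosomal RNA.

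Counts were fitted in R 4.3.3 with edgeR 4.0.16: genes kept by filterByExpr over 6 groups (count minimum 10), TMM factors of 0.812 to 1.15, 18 libraries in 1 group-means fit, 2-sided quasi-likelihood tests for 11 comparisons, Benjamini-Hochberg adjustment over 11357 genes, called at an adjusted p under 0.05. The SE is the log2 change divided by the square root of F. Where no library of a group had over 3 counts of a gene, that group's level was taken as a floor of 3 counts per library. The mean of the other group was then given as a multiple of this floor. Floors cover counting error only, not the spread between libraries. The smallest p that permuting 3 against 3 libraries could give is 0.1. Correlations used log2 CPM with a prior count of 2, and the place of resting KO replicate 3 used log2(CPM + 0.5). The fit recovered known changes in simulated counts. These held no outlying library and no pairing of cultures, so they do not show how the fit treats resting KO replicate 3. No pair of replicates agreed within sampling noise.

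Gene positions, exons, coding sequences and 3′ UTRs came from Gencode M21 of the same build, and miRNA and promoter sequences from RefSeq; 6 of the 8 genes had a promoter entry. Seed matches followed the usual classes (an 8mer pairs bases 2 to 8 with an A opposite base 1). The GKS and GMS classes were read from the translated coding sequences.

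Members and lists were chosen with earlier results of these data known. Named genes were the 8 IRG genes, tested rows of the IRG list, selected interferon pathway genes, at most 2 called genes per other list by the size of the resting KO difference, and the genes most alike over libraries; Ifnar1, and Gbp3, Gbp5 and Gm5431 among the most alike, were named after their values were seen. The values of 1 listed gene are not reported here. The labels give 3 mice per genotype, and resting and LPS libraries of a genotype share replicate letters. No label ties a letter to a single mouse. The main tests took the cultures as unpaired, so their p-values measure the spread between these cultures. Alternatives were DESeq2 1.42.0 (size factors, or its Wald test), limma-voom with quality weights (limma 3.58.1), other filters, the compared groups alone, a replicate block, Tgtp1 and Tgtp2 summed, and leaving out each library.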

Additional observations from a re-analysis of the deposited data

How the results depend on the processing

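The counts of IRG genes called with LPS in WT and in 3F stayed at 7 or 8 under every alternative that was run. The share of all genes called higher was not stable. It was lowest with no filter on low counts (WT 7.28%, 3F 8.09%) and highest with limma-voom (WT 25.3%, 3F 26.6%). With the compared groups alone, or Tgtp1 and Tgtp2 summed, only 7 genes were tested, and all 7 were called. Counts between 3F and WT, and for both differences in response, stayed at 0. The median of the KO and WT difference in response moved all the same, from -2.94 to -0.79 with limma-voom, -1.78 with the replicate block, -0.85 without resting KO replicate 3 and -3.98 without resting WT replicate 3. For the KO response to LPS (1 gene called, against 14.3% of all genes), limma-voom called 8 (against 30.3%) and the compared groups alone 0 (against 11%). Without resting KO replicate 1 or 2, or KO LPS replicate 1 or 2, the count was 0, against 8.68% to 11.2%. Without resting KO replicate 3 it was 8, against 20.2%. For KO against WT at rest (7 called, against 5.12%), limma-voom called 2 (9.55%), the compared groups alone 0 (1.14%), and leaving out a library 1 to 7 (1.64% to 5.46%). For KO against 3F at rest (6 called, against 6.79%), limma-voom called 3 (12.9%) and the compared groups alone 0 (0.101%). Leaving out a library gave 3 (without resting KO replicate 3, 4.4%) to 7 (without resting KO replicate 1 or 2, 6.16% and 6.95%). With LPS (0 called), limma-voom called 2 for KO against WT (7.84% of all genes) and 3 for KO against 3F (8.25%), and the compared groups alone called 6 for KO against 3F (7.61%). The cause of these shifts between tools was not tested.

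With a replicate block, 7 genes were called in the KO response to LPS in place of 1, against 14.7% of all genes. Their median was 2.5 in place of 1.58, taken over the 8 genes, and no other count moved by over 1.5 times. Replicate numbers did not meet the bar for pairing, a correlation over 0.1 in every pair. Same-numbered LPS and resting libraries of a genotype correlated at 0.028 to 0.318, over 0.1 in 5 of 9 pairs, and those of different numbers at -0.268 to 0.121, over 0.1 in 1 of 18. Of the 9 LPS libraries, 7 correlated best with the resting library of their own number, a hint from the data and not the design. Same-numbered libraries of 2 genotypes correlated at -0.287 to 0.214.

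Tgtp1 turned to -0.45 for KO against WT at rest with limma-voom and to -0.51 without resting KO replicate 3, and leaving out a library gave -0.51 to 4.85. Its difference in response between KO and WT turned to 1.76 with limma-voom, 0.10 without WT LPS replicate 3 and 1.24 without resting KO replicate 3. Leaving out a library gave -4.12 to 1.24 for it. Gm4951 turned to -0.15, -0.29 and -0.06 for KO against WT with LPS without WT LPS replicate 1, WT LPS replicate 2 and KO LPS replicate 2, over a range of -0.29 to 1.44. Irgm2 turned to 0.027 in the difference in response between KO and WT without resting KO replicate 3, over a range of -2.05 to 0.027. None of these values was called in either direction. Depth limited Tgtp1 in every group and Iigp1, Gm4951 and Tgtp2 in resting WT and 3F, where single counts decide a level.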
